A study of Mus musculus with 6 samples.

Results

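Sorted muscle macrophages carried small amounts of RNA from genes that mark fibroblasts, blood vessel lining cells and vessel wall cells, and most of these transcripts had lower values in old than in young mice. The genes described are 37 named markers of stromal and vascular cells, taken by gene name from a table of 54966 features and kept at any level. By role, 23 are fibroblast and matrix genes, 6 are endothelial, 7 are mural (smooth muscle and pericyte) and 1, Vcam1, is an adhesion molecule. All 37 were found in the table. RNA had been sequenced from macrophages gated as positive for CD11b and for the macrophage surface protein encoded by Adgre1, with low Ly6C, sorted from skeletal muscle on day 3 after barium chloride had been injected, which kills muscle fibres. There were 3 libraries from old and 3 from young mice, all wild type (wt) and all injured, and the labels give neither exact ages nor sexes. Whether a library stands for 1 animal or a pool, and whether a group's libraries are separate animals, is not in the labels. The p-values therefore measure only library-to-library spread, part of which may be technical.

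In injured muscle, fibro-adipogenic progenitors and other fibroblasts lay down a transient matrix of fibrillar collagens, collagen VI and small proteoglycans around the regenerating fibres. Endothelial cells line the capillaries on a basement membrane of collagen IV, and mural cells wrap them. Macrophages clear debris beside all of these cells and express some of the same genes. Of the 37, gelsolin (Gsn), endoglin (Eng), Pecam1, Flt1, Vcam1 and Tnfaip6 are known from myeloid cells as well.

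The libraries held 16543939 to 19400929 fragments, recovered from the steps in the low values. Values are in FPKM, which divides fragments by gene length and library size, and at this depth 1 fragment in a gene of 1 kilobase is worth 0.0541 to 0.0595 FPKM. Macrophage markers were abundant in every library, and Adgre1, named as a gene of the gate, had 476, 431 and 430.2 FPKM in old and 358, 347 and 382 FPKM in young. The 12 macrophage markers summed to 16731 to 19978 FPKM in old and 16281 to 19047 FPKM in young libraries, with Lyz2 alone at 9916 FPKM in old and 10364 FPKM in young. Of the 12, 5 (Adgre1, Itgam, Cd68, C1qb and Fcgr1) had higher values in every old library and 0 had lower ones, against 9.45% and 8.64% of all features of at least 0.1 FPKM. Of the 11108 features of at least 1 FPKM, where all 12 lie, 1366 were higher and 954 lower in this way. At an unadjusted p under 0.05, 4 of the 12 were higher in old and 0 lower, against 8.84% and 6.18% of those features. Of the 12, 0 passed (limma, smallest adjusted p = 0.169), against 0.036% of those features. Their part in the differences of the stromal genes was not tested. The 37 stromal and vascular genes summed to 156 to 170 FPKM in old and 164 to 199 FPKM in young libraries, and most of that sum was Gsn. Without Gsn and Eng, the other 35 summed to 22.7, 19.9 and 26.5 FPKM in old replicates 1 to 3 and to 40.1, 32.9 and 29.2 FPKM in young replicates 1 to 3. Of the 37, 13 had a mean of at least 1 FPKM over the 6 libraries, 22 lay between 0.1 and 1 FPKM, and 2, Pdgfra and Myh11, lay under 0.1 FPKM.

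The comparison was old against young. In 22 of the 37 genes every old library was below every young library, in 1, Flt1, every old library was above every young one, and in 14 the groups overlapped. Of the 35 whose mean reached 0.1 FPKM, 20 did not overlap and were lower in old, against 8.64% of all 17659 features at that level. On the side of higher values in old, 1 of the 35 did not overlap, against 9.45% of all features. The old mean was at most 0.5 of the young mean in 18 of the 35, against 6.04% of all features. Of the 13 members with at least 1 FPKM, 0 passed limma's adjusted p of 0.05 over 11108 tested features, against 0.036% of those features. At an unadjusted p under 0.05, 5 were lower in old and 0 higher, against 6.18% and 8.84% of all tested features. Because 13 were tested at this filter, which takes the mean of both groups, the count says nothing of the other 24. In a fit of all features down to 0.1 FPKM (limma on log2(FPKM + 0.1)), 0 of 35 passed, against 0.0453%. With limma voom on recovered fragments, 2 of 34 passed, Col4a1 and Pecam1, both lower in old, against 0.608% of 15122 features in either direction and 0.218% lower in old. In bulk RNA, fewer cells of a type and less RNA per cell cannot be told apart.

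**Figure D1:**
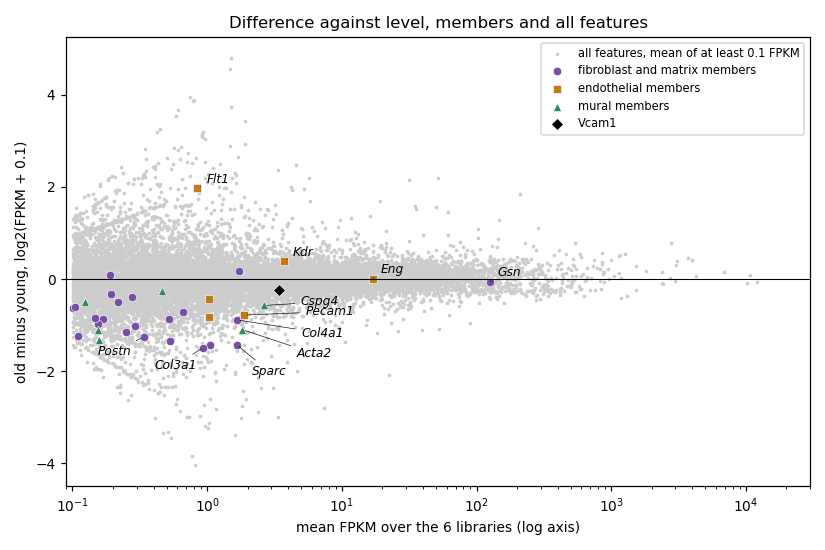
Difference between groups (old minus young, on the log2(FPKM + 0.1) scale) against the mean level of each gene on a log axis, for the 35 members with a mean of at least 0.1 FPKM and, in grey, all 17659 features at that level. Most fibroblast, matrix and mural members lie below the line at 0, Gsn and Eng lie close to it at high level, and Flt1 stands at 1.98 above it.

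All 5 fibrillar collagen genes had lower values in every old library than in any young one. Over all features of at least 0.1 FPKM, a level that all 5 reached, this share was 8.64%. Col1a1 and Col1a2 encode the chains of collagen I, Col3a1 that of collagen III, and Col5a1 and Col5a2 chains of collagen V, which starts the fibrils. Col1a1 (chromosome 11, 94936224 to 94953042) had 0.307, 0.389 and 0.922 FPKM in old replicates 1 to 3 and 2.21, 1.30 and 1.14 FPKM in young replicates 1 to 3. Every old library lay below every young one, and old replicate 3 stood closest to the young group. On log2(FPKM + 1) the difference was -0.72 (SE 0.215, limma adjusted p = 0.216), with means of 0.539 ± 0.334 in old and 1.55 ± 0.578 FPKM in young (SD, n = 3 each).

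The other 4 chains followed the same order of libraries within the old group, with replicate 1 lowest and replicate 3 highest. Col1a2 had 0.167, 0.192 and 0.413 FPKM in old and 1.12, 0.742 and 0.529 FPKM in young libraries. Col3a1 had 0.274, 0.325 and 0.783 FPKM in old, against 1.88, 1.34 and 0.987 FPKM in young. Col5a1 lay between 0.0593 and 0.193 FPKM in old and between 0.270 and 0.529 FPKM in young, and Col5a2 between 0.0467 and 0.136 FPKM in old and 0.180 and 0.372 FPKM in young. The old mean of these 5 genes was 0.313 to 0.353 of the young mean. Without old replicate 3 the ratio was 0.225 for Col1a1 and 0.213 for Col3a1, and without young replicate 1 it was 0.444 and 0.396. Adjusted p ranged from 0.216 for Col1a1 to 0.435 for Col5a2 (limma, on log2(FPKM + 1) for Col1a1 and on log2(FPKM + 0.1) for the other 4), and 0 of the 5 passed. The fragments behind these values were few: Col3a1 had 48, 55 and 141 in old and 342, 221 and 165 in young libraries, and Col5a2 had 8, 13 and 24 in old and 66, 29 and 31 in young.

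Col3a1 and Col5a2 lie on chromosome 1 with 24.6 kb between them and are transcribed towards each other, while Col1a1 and Col1a2 lie on chromosomes 11 and 6. The 250 bases before the RefSeq starts of Col1a2 (GRCm38.p6, chr6:4505368-4505617, plus strand) and Col3a1 (chr1:45311288-45311537, plus strand) are shown because these genes ordered the libraries alike from unlinked loci. Capitals mark matches, on either strand, to CCAAT, to TATAAA, to GGGCGG and to the CArG box with at most 1 base of its core that is not A or T.
Col1a2: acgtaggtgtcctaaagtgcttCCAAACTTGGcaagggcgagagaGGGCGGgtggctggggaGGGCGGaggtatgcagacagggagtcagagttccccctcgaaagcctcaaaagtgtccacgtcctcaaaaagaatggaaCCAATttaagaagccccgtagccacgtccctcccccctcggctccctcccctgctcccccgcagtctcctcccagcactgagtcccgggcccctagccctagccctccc
Col3a1: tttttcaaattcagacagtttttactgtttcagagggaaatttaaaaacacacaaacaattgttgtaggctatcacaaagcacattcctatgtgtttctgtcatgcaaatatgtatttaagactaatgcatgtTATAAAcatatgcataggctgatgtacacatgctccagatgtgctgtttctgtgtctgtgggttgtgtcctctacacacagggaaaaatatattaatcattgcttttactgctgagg
The Col1a2 window held GGGCGG and CCAAT and the Col3a1 window held neither, so no match was common to these windows. Of all 32851 windows of this length, 33.8% held CCAAT, 32.7% GGGCGG and 12.4% TATAAA. Of the 37 genes 25 had an entry, and 7 of these held CCAAT, 13 GGGCGG and 3 TATAAA. The entry was missing for Col1a1, Col5a2, Dcn, Lum, Mfap5, Loxl1, Pecam1, Cdh5, Vcam1, Tagln, Myh11 and Pdgfrb.

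**Figure D2:**
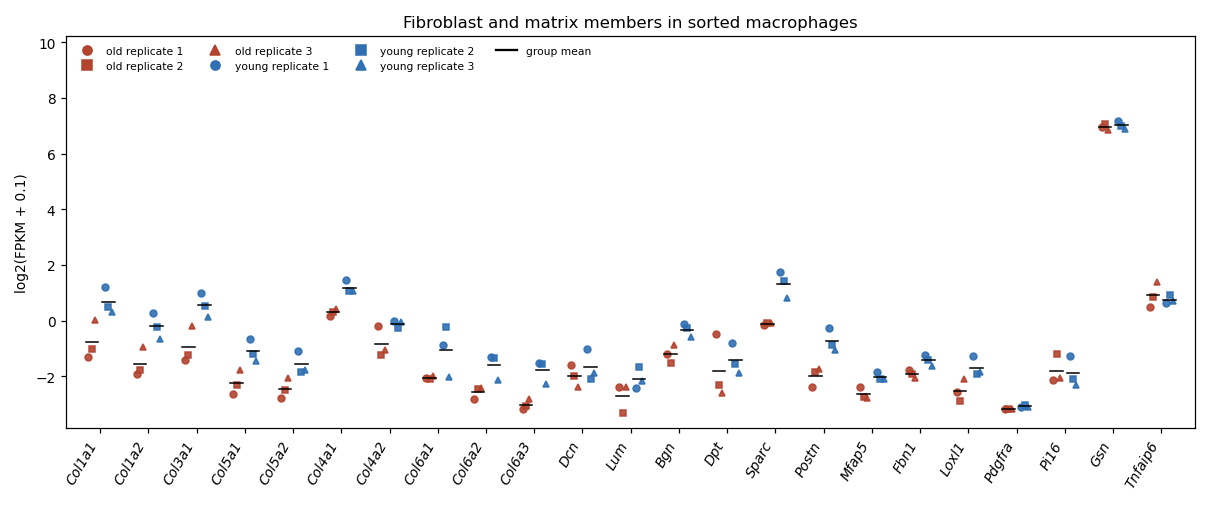
Level of the 23 fibroblast and matrix members in each library, as log2(FPKM + 0.1), old libraries in red on the left of each pair and young libraries in blue on the right, with the group mean as a line. The 5 fibrillar collagens, Col4a1, Sparc and Postn separate the groups, and Gsn, the highest, does not.

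Collagen IV, the network of basement membranes, had a higher sum than the fibrillar collagens in old replicates 1 and 2 and a lower one in the other 4 libraries. Col4a1 (chromosome 8, 11198423 to 11312826) had 1.02, 1.14 and 1.24 FPKM in old and 2.64, 1.98 and 1.97 FPKM in young libraries. The groups were well apart and each was narrow, with means of 1.13 ± 0.112 in old and 2.19 ± 0.384 FPKM in young (SD, n = 3 each). The difference on log2(FPKM + 1) was -0.58 (SE 0.117, limma adjusted p = 0.144), and with voom on fragments it was -0.95 (SE 0.162, limma adjusted p = 0.0421). Its partner chain Col4a2 had 0.777, 0.324 and 0.379 FPKM in old and 0.899, 0.728 and 0.860 FPKM in young libraries. Old replicate 1 fell among the young values there, so the groups overlapped (limma adjusted p = 0.417 on log2(FPKM + 0.1)). The old mean was 0.516 of the young mean for Col4a1 and 0.596 for Col4a2.

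The genes for these chains are transcribed away from each other from starts that overlap by 22 bases, at chr8:11312805-11312826, which is shown on the plus strand (GRCm38.p6, RefSeq) as the point the pair shares.
Col4a1 and Col4a2: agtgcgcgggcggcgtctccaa
Each gene shares these 22 bases of exon with the other, 0.3% of its exon bases.

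Collagen VI, which anchors cells to the matrix around muscle fibres, had the lowest sum of the 3 collagen sets in every library. Col6a3 had 0.00935, 0.0194 and 0.0410 FPKM in old and 0.244, 0.239 and 0.108 FPKM in young libraries, from 2, 4 and 9 fragments in old and 54, 48 and 22 in young. Its old mean was 0.118 of the young mean, 0.0730 of it without old replicate 3 and 0.154 of it without old replicate 1. Col6a2 had 0.0403, 0.0837 and 0.0852 FPKM in old, against 0.305, 0.293 and 0.127 FPKM in young, and its groups did not overlap either. Col6a1 had 0.140, 0.133 and 0.149 FPKM in old and 0.444, 0.747 and 0.147 FPKM in young libraries, and young replicate 3 was within the old range. The old mean of Col6a1 was 0.316 of the young mean, and 0.476 of it without young replicate 2. Young replicate 3 was the lowest young library for all 3 chains. None of these 3 passed (limma adjusted p = 0.323 to 0.450 on log2(FPKM + 0.1)).

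Among the proteoglycans and glycoproteins, the groups did not overlap for 6 of 9 genes, all 6 lower in old, where the share over all features of at least 0.1 FPKM was 8.64%. Sparc, a collagen-binding secreted protein, had 0.797, 0.843 and 0.850 FPKM in old and 3.21, 2.56 and 1.66 FPKM in young libraries. The old libraries were nearly equal, and the young ones spread over a wider range above them (0.830 ± 0.0283 in old and 2.48 ± 0.780 FPKM in young, SD, n = 3 each). The difference was -0.90 on log2(FPKM + 1) (SE 0.171, limma adjusted p = 0.141), and voom gave limma adjusted p = 0.0514.

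Postn encodes periostin, which is made by activated fibroblasts. It had 0.0900, 0.180 and 0.201 FPKM in old and 0.727, 0.444 and 0.385 FPKM in young libraries, an old mean of 0.303 of the young one. Bgn, the proteoglycan biglycan, had 0.330, 0.247 and 0.447 FPKM in old, against 0.816, 0.721 and 0.558 FPKM in young. Fbn1 encodes fibrillin of elastic microfibrils, Mfap5 a protein bound to them and Loxl1 an enzyme that cross-links elastin. Each of these had lower values in every old library, with ratios of 0.600, 0.422 and 0.361. That of Loxl1 was 0.237 without old replicate 3 and 0.461 without young replicate 1. Mfap5 and Loxl1 rested on 2 to 19 fragments a library. Of the exon bases of Fbn1, 20.1% are shared with a gene model on the opposite strand, and whether the counting used strand is not given in the sources used here.

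The groups overlapped for the other 3 genes of this set, the small proteoglycans Dcn and Lum and the matrix protein Dpt. Dcn, decorin, had 0.230, 0.149 and 0.0934 FPKM in old and 0.389, 0.132 and 0.171 FPKM in young libraries. Lum, lumican, lies 47.0 kb from Dcn on chromosome 10 and had 4, 0 and 4 fragments in old and 4, 9 and 5 in young. Dpt, dermatopontin, had 0.616, 0.101 and 0.0633 FPKM in old and 0.470, 0.241 and 0.170 FPKM in young. Old replicate 1 held the highest Dpt value of the 6 libraries, from 19 fragments. The adjusted p of these 3 genes ranged from 0.663 to 0.840 (limma on log2(FPKM + 0.1)), and whether their ratios differ from those of the fibrillar collagens was not tested.

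The other fibroblast genes include the receptor that defines fibro-adipogenic progenitors. Pdgfra, which encodes the receptor for PDGF on these cells, had 2 fragments in each old library and 3, 4 and 3 in young replicates 1 to 3. The groups did not overlap, at counts of 4 fragments or fewer. Pi16, a marker of adventitial fibroblasts, had 14, 37 and 16 fragments in old and 37, 14 and 11 in young libraries.

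For Gsn and Tnfaip6 the groups overlapped. Gsn, which severs actin filaments, had 125, 133 and 114 FPKM in old and 142, 126 and 119 FPKM in young libraries, a difference of -0.06 on log2(FPKM + 1) (SE 0.095, limma adjusted p = 0.813). Its 6386 to 8310 fragments a library were the most of the 37 genes. Tnfaip6, a hyaluronan-binding protein induced by inflammation, had 1.31, 1.70 and 2.52 FPKM in old and 1.45, 1.77 and 1.51 FPKM in young (0.12, SE 0.164, limma adjusted p = 0.774).

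The endothelial genes had no common direction, with 3 of 6 lower in old by mean and 3 higher. Pecam1, CD31, an adhesion molecule of endothelium, platelets and leukocytes (chromosome 11, 106654217 to 106750628), had 1.37, 1.33 and 1.36 FPKM in old and 2.23, 2.42 and 2.57 FPKM in young libraries. Both groups were tight and clearly separate, with means of 1.35 ± 0.0208 in old and 2.41 ± 0.172 FPKM in young (SD, n = 3 each). The difference was -0.53 on log2(FPKM + 1) (SE 0.087, limma adjusted p = 0.104). It passed with array weights (limma adjusted p = 0.0491), where 0.45% of features were called and 0.18% were lower in old, and with voom on fragments (limma adjusted p = 0.0282). Voom restricted to features of at least 1 FPKM called Pecam1 as well (limma adjusted p = 0.0327), against 0.374% of features in either direction and 0.128% lower in old. Aqp1, a water channel of capillary endothelium and red cells, had 0.745, 0.707 and 0.540 FPKM in old and 2.43, 0.951 and 0.827 FPKM in young. The groups did not overlap, and young replicate 1 stood far above the other 5 libraries (-0.47, limma adjusted p = 0.423). The old mean of Aqp1 was 0.474 of the young mean, and 0.747 of it without young replicate 1. Cdh5, VE-cadherin of endothelial junctions, had 0.586, 0.994 and 1.03 FPKM in old and 1.53, 1.17 and 0.908 FPKM in young, and its groups overlapped (-0.24, limma adjusted p = 0.541).

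Both VEGF receptor genes among the 37, Flt1 and Kdr, had higher means in old. Flt1, which encodes VEGF receptor 1 (chromosome 5, 147561604 to 147726011), had 1.17, 0.954 and 2.05 FPKM in old and 0.565, 0.211 and 0.126 FPKM in young libraries. It was the single gene of the 37 with every old library above every young one, at 283, 222 and 508 fragments in old and 141, 48 and 29 in young. The old mean was 4.63 times the young mean, 8.25 times without young replicate 1 and 3.54 times without old replicate 3. On log2(FPKM + 0.1) the difference was 1.98 (SE 0.461, limma adjusted p = 0.215), and voom gave 2.38 (SE 0.486, limma adjusted p = 0.0706). Kdr, VEGF receptor 2, had 4.82, 1.82 and 6.73 FPKM in old and 3.48, 2.97 and 2.46 FPKM in young libraries. Old replicate 2 was the lowest of the 6 and old replicate 3 the highest, so the groups overlapped (0.35 on log2(FPKM + 1), SE 0.344, limma adjusted p = 0.681). For Flt1 and Kdr alike, old replicate 3 was highest, old replicate 1 next and old replicate 2 lowest among the old, and the young ran from replicate 1 down to replicate 3. Eng, a co-receptor for TGF-beta family ligands, had 18.03, 17.11 and 15.71 FPKM in old and 16.99, 17.57 and 16.01 FPKM in young (0.01, SE 0.073, limma adjusted p = 0.976).

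The 250 bases before the RefSeq starts of Flt1 (chr5:147726012-147726261, minus strand) and Kdr (chr5:75978456-75978705, minus strand) are shown for the receptors that ordered the libraries alike within each group, with the same matches in capitals. Between the groups the order differed, since old replicate 2 was above every young library for Flt1 and below every one for Kdr.
Flt1: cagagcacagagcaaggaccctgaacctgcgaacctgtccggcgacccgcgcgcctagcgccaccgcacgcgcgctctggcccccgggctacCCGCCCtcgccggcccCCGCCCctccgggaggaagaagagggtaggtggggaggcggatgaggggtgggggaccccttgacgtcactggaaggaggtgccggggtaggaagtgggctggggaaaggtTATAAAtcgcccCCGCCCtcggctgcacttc
Kdr: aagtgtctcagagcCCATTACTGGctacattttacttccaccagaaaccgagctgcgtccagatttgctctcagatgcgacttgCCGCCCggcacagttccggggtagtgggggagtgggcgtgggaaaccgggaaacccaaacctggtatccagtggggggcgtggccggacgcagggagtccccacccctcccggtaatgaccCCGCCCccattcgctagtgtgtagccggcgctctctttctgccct
Each window held GGGCGG, 3 times for Flt1 and 2 times for Kdr, as did 32.7% of all windows, and TATAAA stood 31 bases before the Flt1 start.

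Further markers of endothelium were low. Of 18 such genes 0 reached a mean of 1 FPKM, and they summed to 1.99, 3.18 and 2.29 FPKM in old and 5.55, 3.47 and 3.11 FPKM in young libraries. The highest by mean were Vwf, von Willebrand factor, with 0.946 FPKM in old and 0.954 in young, and Ecscr, with 0.734 and 0.765 FPKM in old and young. Plvap, a protein of capillary pores, had 0.0843 FPKM in old and 0.677 in young and did not overlap. Esam had 0.263 FPKM in old and 0.355 in young. Cldn5, the claudin of endothelial tight junctions, was picked after its values were seen, with 0, 1 and 0 fragments in old and 13, 5 and 0 in young libraries. Flt1 and Kdr had higher values in old replicates 1 and 3 than in any young library. The sum of the 18 further markers was lower there than in every young library. In old replicate 2 that sum was above that of young replicate 3, Flt1 was above every young library and Kdr below every one. Vwf, the highest of the 18, had 0.961, 0.831 and 1.05 FPKM in old and 1.08, 0.896 and 0.885 FPKM in young libraries. Whether these receptors follow the other endothelial genes was not tested.

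**Figure D3:**
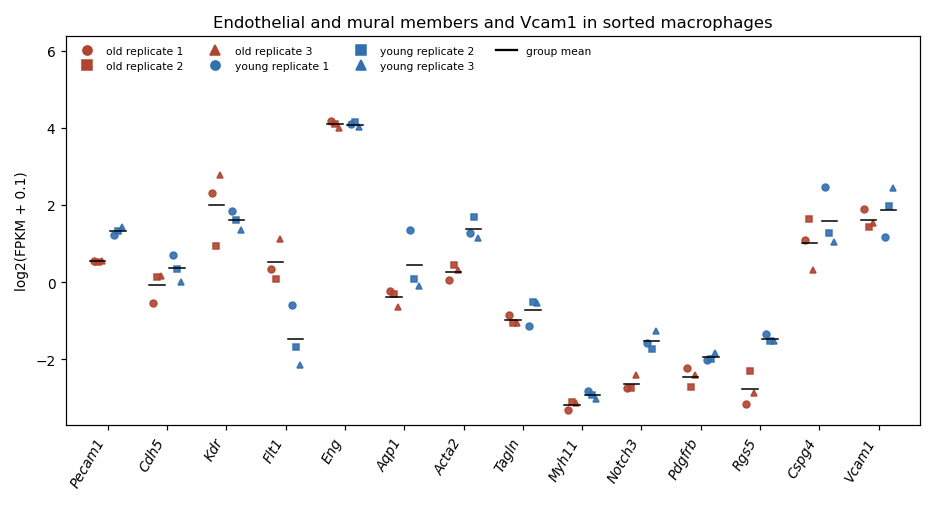
Level of the endothelial and mural members and Vcam1 in each library, as log2(FPKM + 0.1), old libraries in red on the left of each pair and young libraries in blue on the right, with the group mean as a line. Pecam1, Acta2, Notch3 and Rgs5 are lower in all 3 old libraries, Flt1 is higher in all 3, and Eng overlaps between groups.

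The mean was lower in old for each of the 7 mural genes. Of the 6 with at least 0.1 FPKM, 4 did not overlap and were lower in old, against 8.64% of all features at that level. Acta2, smooth muscle alpha-actin (chromosome 19, 34241090 to 34255590), had 0.942, 1.27 and 1.13 FPKM in old and 2.34, 3.11 and 2.11 FPKM in young libraries. Every old value was below every young one, with means of 1.12 ± 0.165 in old and 2.52 ± 0.521 FPKM in young (SD, n = 3 each). The difference was -0.73 on log2(FPKM + 1) (SE 0.133, limma adjusted p = 0.139), with voom giving limma adjusted p = 0.0727. Actin genes have near-identical coding sequences, so the division of fragments between Acta2 and the muscle actins is uncertain, and the fibre actin Acta1 had 2.33 FPKM in old and 5.26 in young.

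Notch3, Rgs5 and Pdgfrb had lower values in every old library, from few fragments. Notch3, the Notch receptor of vascular smooth muscle, had 0.0487, 0.0505 and 0.0881 FPKM in old and 0.235, 0.200 and 0.314 FPKM in young libraries, from 7 to 13 fragments in old and 27 to 43 in young. Rgs5, a pericyte regulator of G-protein signalling, had 1, 8 and 3 fragments in old and 25, 19 and 19 in young libraries. The old mean of Rgs5 was 0.190 of the young mean, 0.0916 of it without old replicate 2 and 0.262 of it without old replicate 1. Pdgfrb, the PDGF receptor of pericytes, had 11, 5 and 9 fragments in old and 15, 14 and 17 in young. Adjusted p was 0.303, 0.272 and 0.641 for these 3 genes (limma on log2(FPKM + 0.1)).

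The other mural genes were Myh11, Tagln and Cspg4. Myh11, smooth muscle myosin, had 0, 2 and 2 fragments in old and 6, 4 and 3 in young libraries, and a count of 0 allows up to 3 fragments. The old mean of Myh11 was 0.305 of the young mean, and 0.457 of it without old replicate 1. Tagln, transgelin, had 0.450, 0.380 and 0.384 FPKM in old and 0.354, 0.598 and 0.591 FPKM in young, and 62.4% of its exon bases are shared with a gene model on the opposite strand. Cspg4, the proteoglycan NG2, was the most abundant mural gene, with 2.04, 3.03 and 1.14 FPKM in old and 5.37, 2.32 and 1.97 FPKM in young. Its groups overlapped, and young replicate 1 stood above the other 5 libraries (-0.42 on log2(FPKM + 1), SE 0.336, limma adjusted p = 0.610). The old mean of Cspg4 was 0.643 of the young mean, and 0.965 of it without young replicate 1. Of 12 further mural markers 0 reached a mean of 1 FPKM and 3 reached 0.1 FPKM. The difference was negative for 10 of them and positive for 1, and the groups overlapped for all 12. Kcnj8, chosen after its values were seen, was the 1 gene of the list with no fragment in any library. The 12 markers summed to 1.12 to 1.27 FPKM in old and 1.502 to 2.38 FPKM in young.

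The 250 bases before the RefSeq start of Acta2 (chr19:34255374-34255623, minus strand) are shown because the CArG box, the site read by serum response factor, is a textbook element of smooth muscle genes.
Acta2: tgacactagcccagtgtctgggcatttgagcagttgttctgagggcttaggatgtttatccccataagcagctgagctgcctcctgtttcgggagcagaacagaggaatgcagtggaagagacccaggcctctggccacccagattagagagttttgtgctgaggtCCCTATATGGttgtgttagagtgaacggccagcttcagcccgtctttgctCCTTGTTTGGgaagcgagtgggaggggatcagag
The window held 2 matches to the CArG box with 1 core base that is not A or T, at 84 and 34 bases before the start, and none to the strict box. Such a relaxed match was found in 7.24% of all windows, 2 or more of them in 0.548%, and the strict box in 1.47%. Among the 25 members with an entry, 6 held a relaxed match, and the other 5 (Col1a2, Col6a3, Eng, Gsn and Kdr) are not mural genes. The windows of the mural genes Notch3, Rgs5 and Cspg4 held none.

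Vcam1, which encodes the adhesion molecule that binds leukocyte integrins, is made by endothelium, pericytes and some macrophages. It had 3.63, 2.59 and 2.79 FPKM in old and 2.13, 3.83 and 5.37 FPKM in young libraries. The young range enclosed the old one (-0.21 on log2(FPKM + 1), SE 0.250, limma adjusted p = 0.745), and young replicate 1, the highest library for most matrix genes, was the lowest for Vcam1.

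Young replicate 1 was the highest of the 6 libraries for 22 of the 37 genes, and for 17 of the 23 fibroblast and matrix genes. Within the old group, replicate 3 was the highest for 14 of those 23, among them all 5 fibrillar collagens. For the proteoglycans and glycoproteins, replicate 1 was the highest old library in 5 of 9 genes and replicate 3 in 4, with sums of 2.51, 1.77 and 2.06 FPKM in old and 6.51, 4.89 and 3.59 FPKM in young. The fibrillar collagens summed to 0.853, 1.09 and 2.45 FPKM in old replicates 1 to 3 and to 6.11, 3.89 and 3.11 FPKM in young replicates 1 to 3. Markers of myoblasts, the muscle precursors, followed the same order of all 6 libraries, at 1.02, 1.20 and 1.75 FPKM in old and 4.48, 3.63 and 1.86 FPKM in young. This list of 6 genes had negative differences in all 6. Of the 4 with at least 0.1 FPKM, 2 did not overlap, against 8.64% of all features, and its highest gene, Myog, had 0.746 FPKM in old and 2.12 in young. Muscle fibre markers summed to 6.29 to 9.82 FPKM in old and 12.4 to 17.1 FPKM in young. Of these 10 genes 6 had a negative difference and 4 a positive one, and the groups overlapped for 7. Of the 6 with at least 0.1 FPKM, 2 did not overlap and were lower in old and 0 were higher, against 8.64% and 9.45% of all features. Of the 4 tested, 3 were lower in old at an unadjusted p under 0.05 (limma) and 0 higher, against 6.18% and 8.84% of all tested features. The part of either list in the differences of the stromal genes was not tested. Mural sums had another order, with old replicate 2 the highest of the old libraries.

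**Figure D4:**
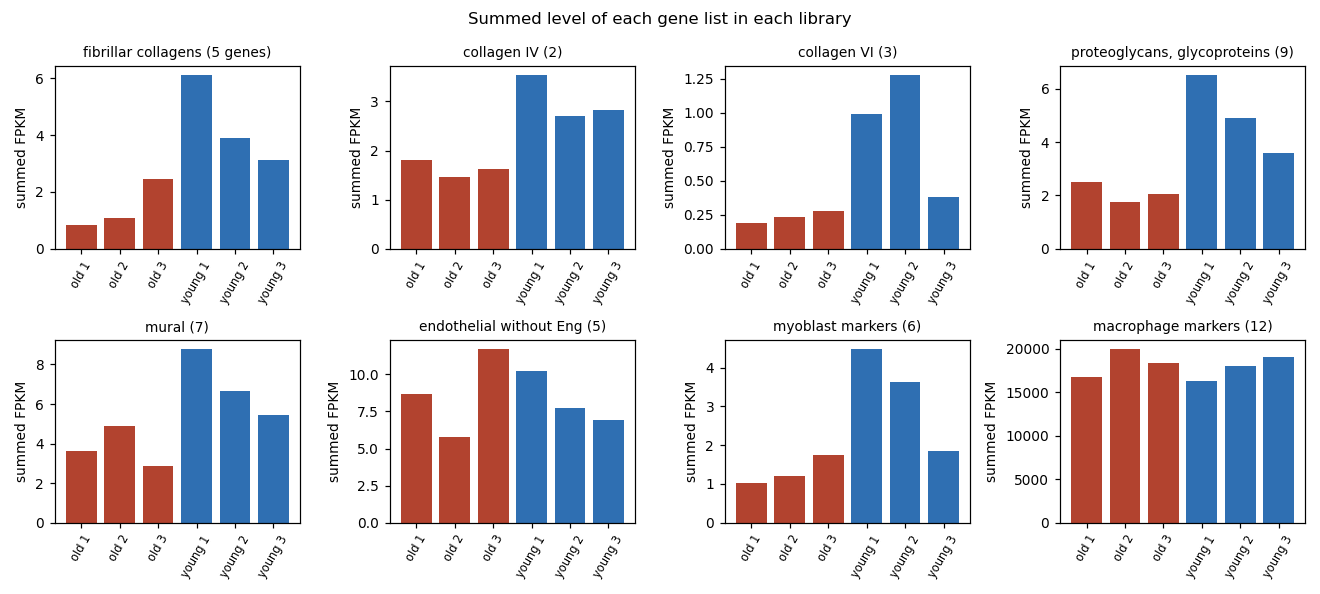
Summed FPKM of 8 gene lists in each library, old libraries in red on the left and young libraries in blue on the right, with axes starting at 0. The fibrillar collagen and myoblast sums rank the 6 libraries in the same order, the endothelial sum without Eng overlaps between groups, and the macrophage sums of the groups overlap.

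As a class, the 23 fibroblast and matrix genes had a median difference of -0.21 on log2(FPKM + 1), and 21 of the 23 were negative. The median was 0.01 over all 11108 tested features, but 18 of the 23 lay under 1 FPKM and were not among these. Over the 6551 features of 0.1 to 1 FPKM the median was -0.016, and 3585 were negative. The 7 mural genes had a median of -0.23 and the 6 endothelial genes one of -0.12, with 7 and 3 negative. Without Gsn, the fibroblast and matrix genes summed to 6.79, 6.59 and 9.07 FPKM in old and 18.9, 14.7 and 11.5 FPKM in young, 0.497 of the young mean, and with Gsn the ratio was 0.911. The mural sum was 3.61, 4.90 and 2.88 FPKM in old and 8.78, 6.66 and 5.43 FPKM in young, a ratio of 0.546. The endothelial sum without Eng was 8.70, 5.81 and 11.7 FPKM in old and 10.2, 7.72 and 6.90 FPKM in young.

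Of 20 further fibroblast markers, 17 had a lower mean in old and 3 a higher one, with a median ratio of 0.633. Of these genes 6 were tested and 0 passed, against 0.036% of all tested features. Of the 13 with at least 0.1 FPKM, 5 did not overlap and were lower in old, against 8.64% of all features, and 0 were higher. These 5 were Col15a1, Serpinf1, Dpp4, Col14a1 and Lox, named here as the members of that count. The highest was Pdpn, podoplanin, which inflammatory macrophages also express, with 48.4 FPKM in old and 44.2 in young. Col15a1, a basement membrane collagen, had 2.30 FPKM in old and 3.08 in young, Serpinf1 2.12 and 2.99, and Htra3 1.96 and 2.63 in old and young. Thy1, Clec3b, Dpep1 and Twist2, chosen after their values were seen as markers of fibroblasts that are rare in macrophages, were at 0.436 FPKM or less in every library. These 4 do not stand for the list of 20, in which 6 genes had a mean of at least 1 FPKM and 13 one of at least 0.1 FPKM.

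The enzymes and chaperones that fold and modify collagen had no common direction. Of 16 such genes 8 were tested and 0 passed, against 0.036% of all tested features. Of the 12 with at least 0.1 FPKM, 4 did not overlap and were higher in old, against 9.45% of all features, and 3 did not overlap and were lower, against 8.64%. The 4 higher ones were those of highest level, and the 3 lower ones were Serpinh1, Bmp1 and Lox. Plod1, a lysyl hydroxylase, had 41.6 FPKM in old and 33.2 in young, P4ha1, a prolyl hydroxylase subunit, 37.5 and 28.1, Ppib, a prolyl isomerase of the endoplasmic reticulum, 31.5 and 25.6, and Crtap, a cofactor of prolyl hydroxylation, 25.9 and 18.3 in old and young. Their limma adjusted p ranged from 0.156 to 0.208. Serpinh1, the chaperone specific to procollagen, was chosen after its values were seen, with 0.595, 0.570 and 1.07 FPKM in old and 2.12, 1.22 and 1.23 FPKM in young (limma adjusted p = 0.270). It was again old replicate 3 that stood nearest to the young libraries, as for the fibrillar collagens. Bmp1, which trims procollagen, had 0.0487 FPKM in old and 0.168 in young, and Lox, which cross-links collagen, 0.163 FPKM in old and 0.320 in young.

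Markers of other cells that the sort could hold were summed in the same way. Of the 4 lymphatic endothelial markers and the 4 adipocyte markers 0 had a mean of 0.1 FPKM. Tenocyte markers summed to 0.784 to 1.31 FPKM in old and 0.943 to 2.48 FPKM in young, Schwann cell markers to 7.18 to 7.86 FPKM in old and 7.44 to 8.29 FPKM in young, nearly all of it Mbp, and platelet markers to 3.86 to 4.17 FPKM in old and 4.37 to 5.70 FPKM in young. Neutrophil markers summed to 46.0 to 64.4 FPKM in old and 39.8 to 45.1 FPKM in young, most of it Csf3r, which macrophages also express. T and NK cell markers summed to 2.37 to 3.87 FPKM in old and 4.30 to 12.8 FPKM in young, nearly all of it Cd4, with Cd3e at 0 in every library, and B cell markers to 19.6 to 22.6 FPKM in old and 27.9 to 61.6 FPKM in young, where young replicate 3 was highest and young replicate 1 lowest of the young libraries. That order of the young libraries is the reverse of the one in the fibrillar collagens, and its part in the results was not tested. Erythroid markers summed to at most 1.11 FPKM in old and 0.822 FPKM in young.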

How the data were processed

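The authors deposited FPKM per gene in 1 table of 6 libraries. The submitters' processing notes name the build GRCm38.p6. For the aligner, counter, annotation release and strandedness, nothing is given in the sources used here. Exon lengths and positions came from GENCODE on GRCm38, which held 99.14% of the identifiers. The deposited FPKM times exon length came out as whole fragments, within 0.02 and below 200, in 97.5% to 97.6% of values. Columns of the table without a sample numbered 0.

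Old was compared with young by limma 3.58.1 (R 4.3.3) with a mean-variance trend, on log2(FPKM + 1) computed from the deposited values. The filter was a mean of 1 FPKM. Tests were two-sided, with Benjamini-Hochberg adjustment over all features tested and a threshold of 0.05. Differences are old minus young and understate the change of low genes. A second fit took features down to 0.1 FPKM on log2(FPKM + 0.1), and voom took features with 30 or more fragments. The main fit was tested on simulated data, and the second fit, voom and array weights were not. Members and lists were chosen with earlier results of these data known. All 37 members are named, and up to 4 genes of highest mean from most comparison lists. Other genes were named after their values were seen, apart from Adgre1, a gene of the gate. The labels do not say whether the replicate numbers pair the libraries, and the main fit used no pairing. Same-number correlations were 0.0321, 0.0542 and 0.0415, and the others ran from -0.067 to 0.024. Values this small cannot decide whether the libraries were paired.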

Additional observations from a re-analysis of the deposited data

How the results depend on the processing

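The count of members that passed lower in old was 0, and became 1 with array weights, 1 with voom and 2 with voom at 30 or more fragments. With the replicate block it was 0. Of all features tested, 0.18% passed lower in old with array weights, 0.128% with voom and 0.218% with voom at 30 or more fragments. Each library correlated best with its own number, but weakly, and this measure cannot decide whether the numbers pair the libraries. The median log2 change of the fibroblast and matrix genes was -0.87 with a pseudocount of 0.1, -0.58 over genes of at least 1 FPKM, -0.87 over genes of at least 0.1 FPKM with that pseudocount, -0.52 as TPM, -0.058 over genes of at least 5 FPKM and -1.35 with voom. In the same order, that of the endothelial genes was -0.22, -0.24, -0.22, -0.23, 0.0064 and -0.24. That of the mural genes was -0.57, -0.57, -0.84, -0.57 and, with voom, -1.04, with no gene at 5 FPKM, and -0.26 to -0.18 with each library left out in turn. At 5 FPKM the fibroblast and matrix value is that of Gsn alone and the endothelial value that of Eng alone, so neither describes its class. The endothelial sum ratio was 0.979 as TPM and 0.978 to 1.08 with each library left out, and without Eng it was 0.875 to 1.23. Members not overlapping and higher in old numbered 1 to 2 with each library left out, 2 being without old replicate 2, against 12.7% to 16.2% of all features. Those lower in old numbered 20 to 23, against 12.2% to 16.8% of all features, where all 6 libraries gave 8.64%. Of 517 single-gene values under alternatives, 499 kept direction and side of the threshold, 4 passed in the alternative alone and 14, of 7 genes, reversed. Eng was -0.049 with array weights, -0.0091 with median-of-ratios scaling and -0.054 as TPM. With each library left out, Eng ranged over -0.037 to 0.057, Dcn -0.53 to 0.0029, Dpt -1.05 to 0.018, Pi16 -0.22 to 0.39, Gsn -0.12 to 0.014, Tnfaip6 -0.046 to 0.26 and Vcam1 -0.48 to 0.032. The cause was not tested. Values under 0.1 FPKM rest on few fragments, which limits their precision. Voom at 30 or more fragments, alternatives of the fit down to 0.1 FPKM, sums without Gsn or Eng, counts of members not overlapping under other scalings or with a library left out and ratios of means with a library left out were chosen after seeing the data.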
